A study of Mus musculus with 8 samples.

Results

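The genes described here are 10 enzymes and helper proteins that make prostaglandins and leukotrienes, Ptgs1, Ptgs2, Ptges, Ptges2, Ptges3, Alox5, Alox5ap, Lta4h, Ltc4s and Hpgds. They were chosen by name for this role and not by a cut on any measured value, but with earlier results of these data known. All 10 were found among the 11742 genes present in both replicates, and all 10 were among the 10320 genes with enough signal to be tested.

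Prostaglandins and leukotrienes are lipid mediators made from arachidonate, a fatty acid cut out of membrane phospholipids. The cyclooxygenases Ptgs1 and Ptgs2 convert it to an unstable endoperoxide, from which the E synthases (Ptges, Ptges2, Ptges3) make prostaglandin E and Hpgds makes prostaglandin D. On the other branch the lipoxygenase Alox5, aided by its membrane partner Alox5ap, makes leukotriene A, which Lta4h hydrolyses to the neutrophil attractant leukotriene B and Ltc4s joins to glutathione to give the cysteinyl leukotrienes. In dendritic cells prostaglandin E is known for its part in maturation and migration, and Ptgs2 is a classical gene induced by lipopolysaccharide (LPS).

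Ribosome profiling was done in mature dendritic cells (maDCs) with and without Mettl3, the catalytic subunit of the m6A writer, to ask how m6A affects translation. Bone marrow of C57BL/6 mice aged 6 weeks was grown in GM-CSF (10 ng/ml) and IL-4 (1 ng/ml), CD11c-positive cells were taken on magnetic beads, and all groups were matured with 100 ng/ml LPS for 24 h and treated with cycloheximide for 7 min. WT cells came from Mettl3 fl/fl mice, and KO cells came from littermates that also carried CD11c-Cre, which removes Mettl3 exons 2 to 4 in cells that express CD11c. Each lysate gave an mRNA library (input) and a library of fragments protected by single ribosomes (RPF, or footprints), and their ratio is the translation efficiency (TE) of a gene. Both genotypes thus gave an input and an RPF group, and these 4 groups held 2 replicates each, 8 libraries in all. The methods describe cells from several littermate pairs and the study calls the replicates independent, but which mice went into which library is not given in the sources used here. The spread between replicates, and with it each p-value, may therefore be partly technical.

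Values are RPKM, reads per length of gene and per size of library, deposited in 1 table per replicate. Library totals recovered from replicate 2 were 4835140 and 5276406 reads in RPF and 9920473 and 8794576 reads in input, and the depth of replicate 1 is unknown. Mettl3, the check of the labels, had a log2 KO/WT in footprints of -0.67 and -0.64 relative to the median gene, with a fit of -0.90 ± 0.64 (SE, n = 2 per group, adjusted p = 0.999, limma), while in input the fit gave 0.04 ± 0.18. Neither passed, so Mettl3 does not settle the labels. KO below means the libraries labelled KO, and every direction rests on that label. Over all tested genes the median log2 KO/WT of footprints was -0.46 for replicate 1 and -0.03 for replicate 2, so changes are given relative to the median of all tested genes unless a fit is named. All 9 dendritic cell markers listed were present in both replicates. The 3 B cell markers found in both tables summed to at most 1.48 RPKM in any input library and 17.1 RPKM in any RPF library. Neutrophil markers were abundant, with sums of 3392 to 6374 RPKM over the input libraries, beside 4557 to 5904 RPKM for dendritic cell markers.

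Among the 10 genes Alox5ap had the most RNA, with 194 to 268 RPKM over the 4 input libraries. Its range did not overlap that of any other enzyme of the group. Ltc4s (38.9 to 67 RPKM) and Ptges3 (25.3 to 72.5 RPKM) followed, and their ranges overlapped. Lta4h, Ptgs1 and Ptges had means of 26, 19.6 and 18.8 RPKM. Alox5, Ptges2, Ptgs2 and Hpgds were lowest, with means of 11.2, 7.93, 5.74 and 4.7 RPKM, and each of these neighbours overlapped the next in the order of levels. These levels stand side by side across tables that may each carry their own normalization.

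**Figure D1:**
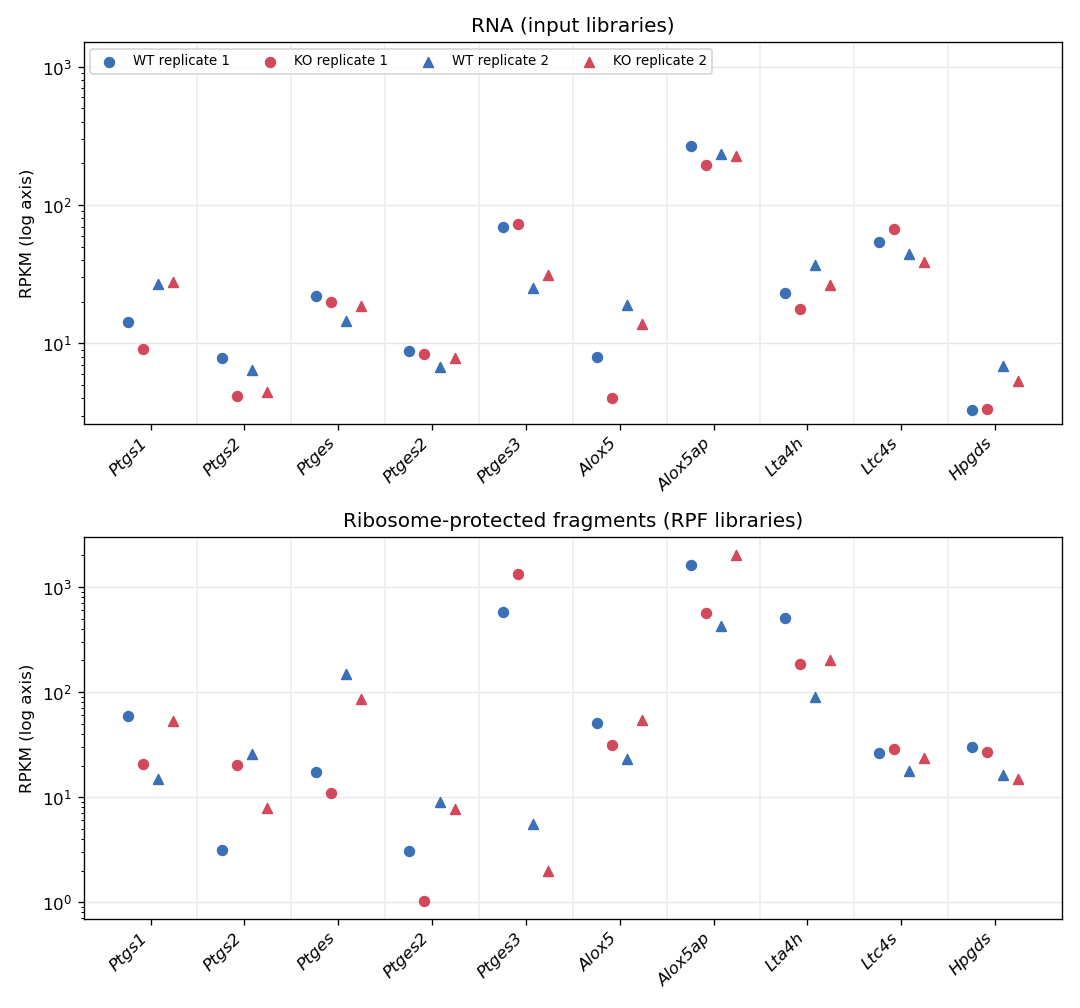
RPKM of the 10 genes in each input library (upper panel) and each RPF library (lower panel), on log axes. Blue marks WT and red KO, circles replicate 1 and triangles replicate 2, with 1 point per library. The 4 input values of Alox5ap lie above those of the other 9 genes, from 194 to 268 RPKM, and footprints of Ptges3 range from 1.97 to 1331 RPKM.

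Ptgs2, the inducible cyclooxygenase, had less RNA in the libraries labelled KO in both replicates. Its input was 7.88 RPKM in WT and 4.16 in KO (replicate 1), then 6.44 and 4.46 RPKM (replicate 2). Both KO libraries lay below both WT libraries. The log2 KO/WT was -0.82 and -0.48, and the limma fit gave -0.67 ± 0.19 (SE), with an unadjusted p of 0.0068 and an adjusted p of 1 over all genes. In replicate 2 these values stood for 285 and 175 reads, and the exact interval (95%) of the log2 ratio ran from -0.81 to -0.25. Such intervals are for the ratio of library-scaled reads as deposited and cover counting error only. From RNA-seq of WT and KO cells, the study lists Ptgs2 among mRNAs more than 1.5-fold higher in WT in both of its data sets. In the input libraries here WT was 1.9-fold and 1.44-fold above KO.

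Footprints of Ptgs2 went in opposite directions in the replicates. They were 3.15 RPKM in WT and 20.2 in KO (replicate 1), then 25.5 and 7.95 RPKM (replicate 2, 223 and 76 reads). The log2 KO/WT relative to the median gene came to 2.96 and then -1.59. The WT values alone differed by 8.07-fold between the replicates, more than KO differed from WT in either one. The TE of Ptgs2 had a log2 KO/WT of 3.76 and -1.12. Its fit was 1.11 ± 0.65 (adjusted p = 0.971, limma), the smallest adjusted p of the group in TE. This SE rests on the spread pooled over genes and does not measure the gap between the replicates of Ptgs2.

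Ptgs1, the constitutive cyclooxygenase, had input values of 14.3 RPKM in WT and 9.13 in KO (replicate 1), then 27.1 and 28 RPKM (replicate 2). The KO library was lower in replicate 1 only. Its footprints were 59 and 20.8 RPKM in replicate 1, and 15 and 52.8 RPKM in replicate 2. The order of WT and KO was thus turned around, with a log2 KO/WT of -1.03 and 1.81. In replicate 2 the reads were 131 and 503, with an exact interval of 1.53 to 2.10, while the counting error of replicate 1 is not known. The 2 cyclooxygenases therefore stood on opposite sides of the median gene in the footprints of each replicate.

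Of the prostaglandin E synthases, Ptges, the inducible microsomal enzyme that works with Ptgs2, had lower footprints in KO in both replicates. Its RPF was 17.2 RPKM in WT and 10.9 in KO (replicate 1), then 150 and 86.3 RPKM (replicate 2, 333 and 209 reads). Relative to the median gene the difference was small in replicate 1 (log2 KO/WT -0.17) and larger in replicate 2 (-0.77), and the fit gave -0.71 ± 0.61 (adjusted p = 0.999, limma). Its input was 22 and 19.9 RPKM in replicate 1 and 14.6 and 18.5 RPKM in replicate 2, so the groups overlapped. Ptges footprints were 8.74-fold higher in the second replicate than in the first in WT, and 7.91-fold in KO.

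Ptges2, a second E synthase of intracellular membranes, was sparse in footprints. RPF values were 3.08 RPKM in WT and 1.02 in KO (replicate 1), then 8.98 and 7.73 RPKM (replicate 2), where they stood for 50 and 47 reads. KO was lower in both replicates (-0.78 and -0.18), but the exact interval of replicate 2 ran from -0.82 to 0.39, and the fit gave -0.72 ± 0.65 (adjusted p = 0.999, limma). Its input was nearly flat, with 8.78 (WT) and 8.35 RPKM (KO) in the first replicate and 6.71 and 7.86 RPKM in the second.

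Ptges3, the cytosolic E synthase better known as the HSP90 co-chaperone p23, had the widest spread in footprints of the 10 genes. RPF was 579 RPKM in WT and 1331 in KO (replicate 1), then 5.6 and 1.97 RPKM (replicate 2), where the values stood for only 13 and 5 reads. The replicates thus differed by 103-fold in WT and 674-fold in KO, while input, at 70 and 72.5 RPKM and then 25.3 and 31.1 RPKM, differed by 2.77-fold and 2.33-fold. The log2 KO/WT of footprints was 1.66 and -1.27, and in replicate 2 the exact interval ran from -3.35 to 0.08. A fold between genotypes cannot be read at this depth.

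The coding sequence of Ptges3 is not unique in the mouse genome, which bears on where a short footprint can be placed. Of its 454 windows of 30 bases, 454 (100%) also occur exactly elsewhere in GRCm38.p6, all of them in the pseudogene Ptges3-ps (chr6:85843980-85844462) and 196 also in Gm11893 (chr4:25541791-25542281). Its first such window is shown as an example, with the start codon in capitals. It lies on chromosome 10 on the plus strand, with its first bases at chr10:128059285-128059286 and the rest in the next exon, chr10:128068672-128068699.
Ptges3 coding bases 1 to 30: ATGcagcctgcttctgcaaagtggtacgat
Among the other 9 genes, Lta4h had 0.996% of the windows of its longer transcript in a second place and the others had 0. How the authors treated reads with several matches is not given in the sources used here, and its part in the gap between the replicates was not tested.

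Hpgds, the hematopoietic prostaglandin D synthase, was the steadiest of the prostaglandin enzymes in footprints. RPF was 29.9 RPKM in WT and 26.8 in KO (replicate 1), then 16.3 and 14.9 RPKM (replicate 2, 47 and 47 reads). The log2 KO/WT relative to the median gene was 0.30 and -0.09, and the exact interval of replicate 2 ran from -0.74 to 0.49. Input was low, at 3.28 and 3.33 RPKM and then 6.85 and 5.34 RPKM, and the fit gave -0.16 ± 0.19 (adjusted p = 1, limma).

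On the leukotriene side Alox5, the enzyme that starts the branch, paired lower RNA with higher footprints per RNA in the libraries labelled KO. Its input was 7.99 RPKM in WT and 4.02 in KO (replicate 1), then 18.9 and 13.9 RPKM (replicate 2). KO was lower within each replicate, although the KO library of replicate 2 lay above the WT library of replicate 1. The log2 KO/WT was -0.88 and -0.43, with a fit of -0.67 ± 0.18, an unadjusted p of 0.00605 and an adjusted p of 1 (limma). In replicate 2, 531 and 345 reads gave an exact interval of -0.65 to -0.25.

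Alox5 footprints were 51.3 RPKM in WT and 31.5 in KO (replicate 1), then 23.3 and 54.5 RPKM (replicate 2, 228 and 581 reads). The direction was turned between the replicates, but in replicate 1 the difference from the median gene was small (log2 KO/WT -0.24, against 1.23 in replicate 2). Footprints per RNA, the ratio of the RPKM values, went from 6.42 in WT to 7.83 in KO in replicate 1 and from 1.23 to 3.92 in replicate 2. As deposited, this gave a TE change of 0.21 and 1.64 on the log2 scale, and relative to the median gene 0.63 and 1.66. As deposited, Ptges footprints were at least 1.5-fold lower in KO in both replicates (log2 KO/WT -0.63 and -0.79), and Alox5 fell short in TE. Relative to the median gene, Ptges fell short. On that scale Alox5 was the 1 gene of the 10 at least 1.5-fold off in the same direction in both replicates, in any measure. Since TE divides by input, the RNA change of Alox5 (-0.88 and -0.43) enters its TE change beside the footprint change (-0.24 and 1.23). In replicate 2 the footprint change was the larger of these. The fit of 0.93 ± 0.64 did not pass (unadjusted p = 0.146, adjusted p = 1, limma).

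As Ptgs2 and Alox5 had the lowest fitted RNA difference of the 10 genes, the 250 bases upstream of their RefSeq starts are shown. RefSeq (GRCm38.p6) gave such a window for 9 of the 10 genes. Capitals mark matches on either strand to any of 5 motifs searched. The core of the cAMP response element was sought as TGACG and the E-box, bound by helix-loop-helix factors, as CACGTG. The GC box of Sp1-type factors was sought as GGGCGG and the palindrome bound by C/EBP factors as TTGCGCAA. The TATA box, which marks some start sites, was sought as TATAAA.
Ptgs2, chr1:150099781-150100030, plus strand: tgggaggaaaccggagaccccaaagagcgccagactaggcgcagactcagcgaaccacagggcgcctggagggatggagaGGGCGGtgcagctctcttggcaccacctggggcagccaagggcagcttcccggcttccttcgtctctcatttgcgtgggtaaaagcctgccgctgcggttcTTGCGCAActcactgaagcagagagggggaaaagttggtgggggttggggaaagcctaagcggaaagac
Alox5, chr6:116461179-116461428, minus strand: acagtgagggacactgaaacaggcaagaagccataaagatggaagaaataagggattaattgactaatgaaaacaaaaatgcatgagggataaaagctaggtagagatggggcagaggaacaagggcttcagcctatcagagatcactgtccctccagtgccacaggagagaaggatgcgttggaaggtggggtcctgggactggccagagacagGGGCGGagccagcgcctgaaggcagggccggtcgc
Both windows held 1 GC box, a match present in 32.7% of 32851 promoter windows of this length. The Ptgs2 window also held 1 C/EBP palindrome, present in 0.164% of windows. The response element core (17.8% of windows), the E-box (6.02%) and the TATA box (12.4%) had no match in either window, and no match overlapped another. The windows end at the RefSeq start, and bases after it or further upstream were not searched. A promoter may hold these motifs outside the window. These matches describe the letters and were not linked to the RNA values.

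Alox5ap (FLAP), which hands arachidonate to Alox5 in the nuclear membrane, had abundant RNA and footprints that changed sides between the replicates. Input was 268 RPKM in WT and 194 in KO (replicate 1), then 234 and 227 RPKM (replicate 2). Its RPF was 1612 and 562 RPKM in replicate 1, and 425 and 2032 RPKM in replicate 2. KO was thus 2.87-fold below WT in the first replicate and 4.79-fold above it in the second, a log2 KO/WT of -1.06 and 2.28 relative to the median gene. The second value rested on 733 and 3828 reads, with an exact interval of 2.14 to 2.37. The fit averaged the replicates to 0.37 ± 0.62 (adjusted p = 0.999, limma).

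The footprint values of Alox5ap in replicate 2 were whole reads over 357 bases, the coding length without the stop codon of the shorter RefSeq transcript (NM_001308462.1), not over the 483 bases of the longer one (NM_009663.2). The shorter transcript lacks coding exon 3 of the longer one, 71 bases at chr5:149279176-149279246 on the plus strand. This exon is only part of the gap between 357 and 483 bases, and the other coding bases lost were not traced.
Alox5ap coding exon 3, absent from the counted transcript: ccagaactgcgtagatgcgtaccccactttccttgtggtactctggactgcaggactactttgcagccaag
Values of Lta4h and Ltc4s stood likewise on a shorter transcript, 1596 bases in place of 1833 and 339 in place of 450. The length cancels in a KO/WT fold but not in a level or in footprints per RNA. Whether reads on the missing bases were counted is not given in the sources used here.

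Lta4h, the leukotriene A hydrolase, had lower RNA in KO in both replicates. Its input was 23 RPKM in WT and 17.8 in KO (replicate 1), then 37 and 26.3 RPKM (replicate 2). The log2 KO/WT was -0.33 and -0.47, and the fit gave -0.42 ± 0.17 (unadjusted p = 0.0344, adjusted p = 1, limma). Footprints were 510 and 184 RPKM in replicate 1, and 90.3 and 204 RPKM in replicate 2 (697 and 1719 reads). As for Alox5ap, KO was lower in the first replicate (-1.01) and higher in the second (1.20, exact interval 1.05 to 1.31).

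Ltc4s, the leukotriene C synthase, had few footprints for its RNA and close values in WT and KO. RPF was 26.4 RPKM in WT and 29 in KO (replicate 1), then 17.7 and 23.5 RPKM (replicate 2, 29 and 42 reads). KO was higher in both replicates, by 0.59 and 0.43 on the log2 scale relative to the median gene, but the exact interval of replicate 2 ran from -0.31 to 1.14. The fit gave 0.26 ± 0.62 (adjusted p = 0.999, limma). Input was 54.1 and 67 RPKM in replicate 1 and 44.6 and 38.9 RPKM in replicate 2, with no shared direction.

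**Figure D2:**
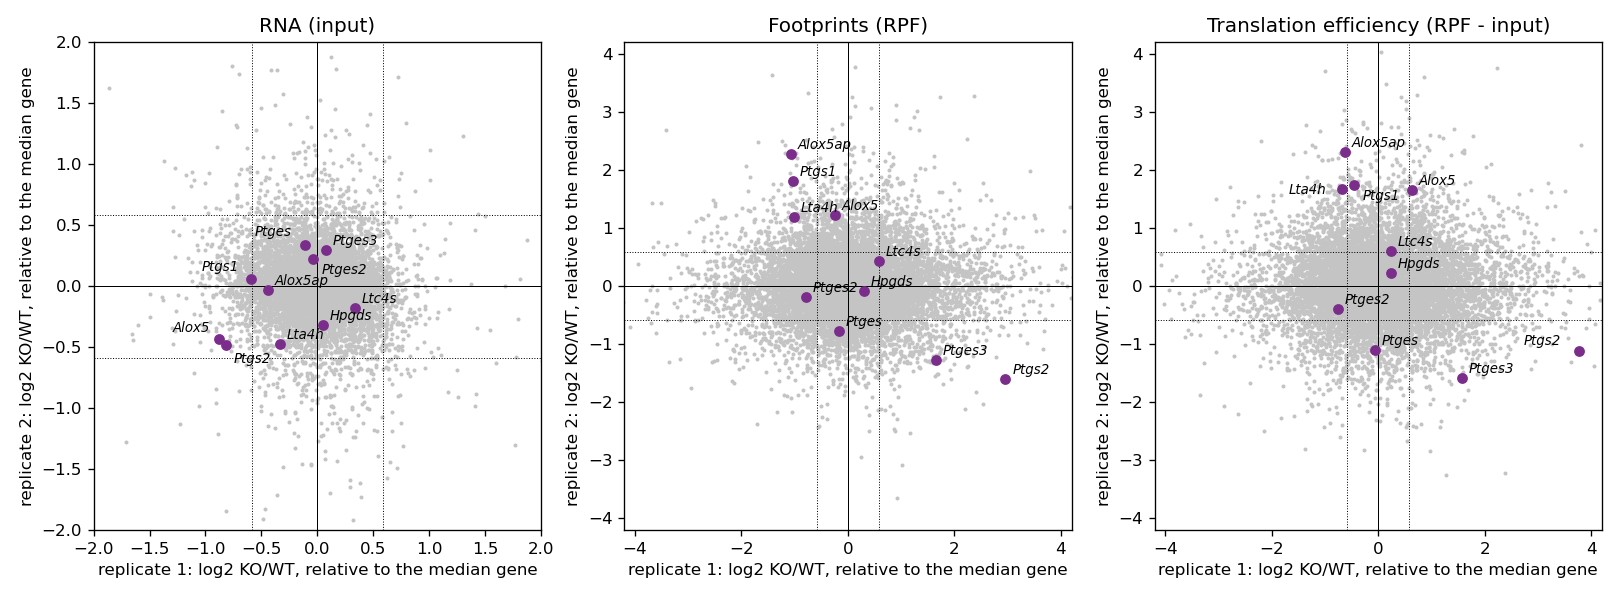
Log2 KO/WT in replicate 1 (horizontal axis) against replicate 2 (vertical axis), each relative to the median of all tested genes, for input, RPF and TE. Grey points are all tested genes (9, 37 and 41 of them lie outside the axes of the 3 panels), purple points the 10 named enzymes, and dotted lines mark 1.5-fold. In RPF, Alox5ap, Ptgs1 and Lta4h lie in the upper left corner and Ptgs2 and Ptges3 in the lower right, and no enzyme lies beyond 1.5-fold in both replicates on the same side.

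Over the 10 genes none passed the test in any measure. Limma gave adjusted p-values of 1 in input, 0.999 to 1 in RPF and 0.971 to 1 in TE, where it called 0%, 0.242% and 0.165% of all tested genes. An unadjusted p under 0.05 was reached by 3 of the 10 in input (Ptgs2, Alox5 and Lta4h, all lower in KO), against 3.28% of all tested genes, and by 0 in RPF and TE, against 5.6% and 5.55%. In the libraries' bulk RNA, fewer cells of a type and less RNA per cell cannot be told apart.

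By the fold rule, at least 1.5-fold from the median gene in both replicates, 0 of the 10 were higher, lower or opposite in input, where 0.145%, 0.136% and 0.736% of all tested genes were. In RPF 0 were higher and 0 lower, against 4.04% and 3.17% of all tested genes. But 5 of 10 were opposite in the 2 replicates (Ptgs1, Ptgs2, Ptges3, Alox5ap and Lta4h), against 7.36% of all tested genes. Without Ptges3, whose footprints cannot be placed uniquely, these were 4 of 9. In TE 1 was higher (Alox5) and 0 lower, against 4.77% and 3.92%, and 4 of 10 were opposite (Ptgs2, Ptges3, Alox5ap and Lta4h), against 8.64%. The median absolute log2 KO/WT of the 10 in RPF was 0.89 and 1.22 in the replicates, beside 0.61 and 0.35 over all tested genes.

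**Figure D3:**
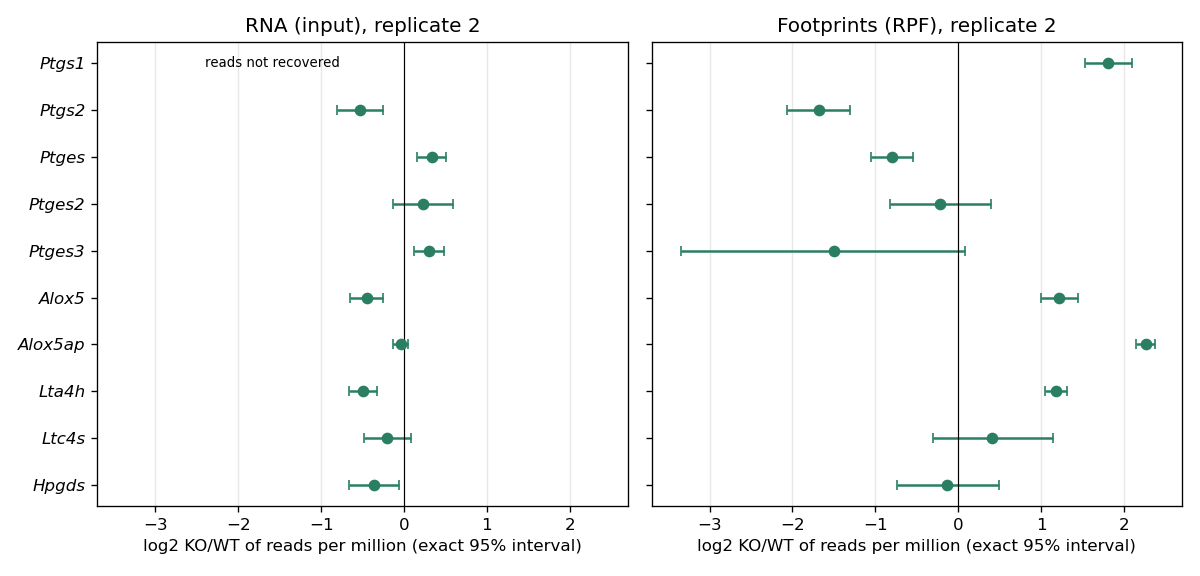
Log2 KO/WT of library-scaled reads in replicate 2 for input (left) and RPF (right). Points are the ratio of KO to WT and bars its exact 95% interval, which covers counting error only. Footprint intervals of Ptgs1, Alox5, Alox5ap and Lta4h lie above 0 and those of Ptgs2 and Ptges below it, while those of Ptges2, Ptges3, Ltc4s and Hpgds include 0.

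Within replicate 2 the leukotriene enzymes Alox5, Alox5ap and Lta4h and the cyclooxygenase Ptgs1 had more footprints in KO, and Ptgs2 and Ptges fewer, each by more than counting error. In replicate 1 Alox5ap, Lta4h and Ptgs1 were at least 1.5-fold lower in KO relative to the median gene, Ptgs2 was higher, and Alox5 and Ptges were within 1.5-fold. Replicate 1 gave no counting interval, since its values showed no steps of single reads. Since reads were not tagged with molecular identifiers, copies of 1 molecule count several times, and the intervals cover less than the full error.

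**Figure D4:**
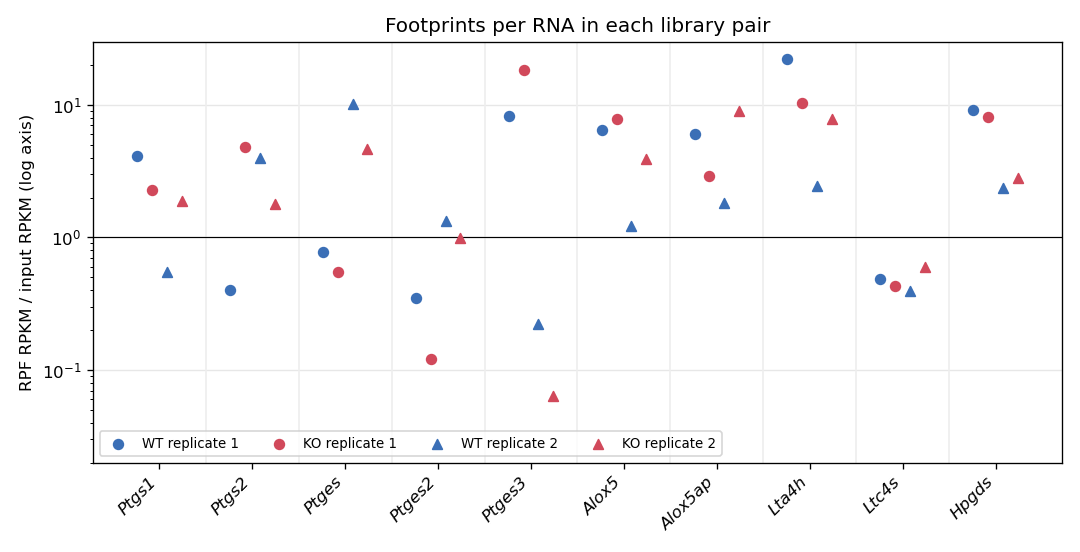
RPF RPKM over input RPKM of the same lysate for the 10 genes, on a log axis, with 1 point per pair of libraries and the line at a ratio of 1. Blue marks WT and red KO, circles replicate 1 and triangles replicate 2. Ltc4s lies below 1 and Alox5, Alox5ap, Lta4h and Hpgds above 1 in all 4 lysates. Ptges and Ptges3 change side between the replicates in both genotypes, and Ptges2, Ptgs1 and Ptgs2 in WT only.

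Footprints per RNA set some of the enzymes apart regardless of genotype. Ltc4s had ratios of 0.488 and 0.432 (WT and KO, first replicate) and 0.397 and 0.603 (second), at percentile 10.3 to 26.2 of all tested genes. Hpgds had 9.11, 8.05, 2.38 and 2.79, at percentile 86.3 to 91.3. Lta4h stood as high, with 22.1, 10.3, 2.44 and 7.76 and percentiles of 87 to 98.4. The 2 enzymes that use leukotriene A, Lta4h and Ltc4s, thus lay far apart on the scale in all 4 lysates. In replicate 2 both ratios stand on the shorter transcripts, and the effect of this on their level was not tested.

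For the E synthases the ratio followed the replicate. Ptges lay at percentile 17.1 and 16.5 in replicate 1 and at 97.3 and 94.4 in replicate 2, and Ptges2 at 6.6 and 2.47 and then at 64.6 and 47.6. Ptges3 went the other way, from 88.8 and 97.6 to 4.43 and 1.07. These gaps between replicates were wider than those between WT and KO in either replicate, and no test was made across the tables because they may have been normalized separately. The cyclooxygenases also moved between replicates in WT, Ptgs2 from percentile 7.92 to 94 and Ptgs1 from 69.1 to 21.9. In KO, Ptgs2 went from 82 to 75.5 and Ptgs1 from 59.2 to 77.5.

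Other genes of the pathway were taken from 5 lists, with 60 genes, of which 37 were in both tables and 31 were tested. Limma called 0 of the 31 in input, RPF or TE. In input 0 of the 31 were at least 1.5-fold higher in both replicates, 1 lower and 1 opposite, against 0.145%, 0.136% and 0.736% of all tested genes. In RPF the counts were 1, 1 and 4, against 4.04%, 3.17% and 7.36%. In TE they were 3, 1 and 4, against 4.77%, 3.92% and 8.64%. Their median log2 KO/WT in RPF was -0.22 and 0.25 in the replicates, against 0 over all tested genes by construction.

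Among the 10 tested genes of arachidonate release, Pla2g15, the lysosomal phospholipase, had a TE change of 1.81 and 0.62 (fit 1.00 ± 0.66), with footprints of 10 (WT) and 19.2 RPKM (KO), then 25.8 and 34.2 RPKM. Its RNA had -0.46 and -0.20 and its footprints 1.36 and 0.43. Mgll, the monoacylglycerol lipase, had a TE change of 0.65 and 0.68. The lysate ratio of both was higher in KO in each replicate, but neither passed (adjusted p = 1, limma). Pla2g4a, the cytosolic phospholipase that supplies most arachidonate for this pathway, had an input change of -0.17 and 0.02 and a footprint change of 0.12 and -0.67. Daglb, a diacylglycerol lipase, was lower in input (-0.24 and -0.31), and Pla2g7, the secreted platelet-activating factor hydrolase, was higher in footprints (0.93 and 0.15).

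Of the 4 other prostanoid synthases tested, Akr1b3, an aldose reductase with prostaglandin F synthase activity, was lower in footprints in KO in both replicates. Its RPF was 465 and 201 RPKM in replicate 1 and 3.93 and 1.8 RPKM in replicate 2 (log2 KO/WT -0.75 and -0.92, fit -1.08 ± 0.61, adjusted p = 0.948, limma). Like Ptges3, it was far lower in the second replicate than in the first. Cbr1, a carbonyl reductase, had a footprint change of -0.68 and -0.32, Prxl2b, another F synthase, a TE change of 0.49 and 1.80, and Tbxas1, the thromboxane synthase, a footprint change of -0.52 and 0.49.

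Of the 4 other lipoxygenase and leukotriene genes tested, Mgst2 and Mgst3, microsomal glutathione transferases related to Ltc4s and Alox5ap, were opposite in footprints. Their log2 KO/WT was -0.86 and 1.51 for Mgst2 and -0.59 and 1.39 for Mgst3. Both thus had the order of Alox5ap and Lta4h, lower in replicate 1 and higher in replicate 2. This order was shared by 25.6% of all tested genes at any size of change. Mgst2 and the footprints of Mgst3 were added after their values were seen, so they lend the order no weight. Cotl1, which binds and stabilizes Alox5, had an input of 332 and 256 RPKM and then 294 and 293 RPKM, a footprint change of -0.22 and 0.54 and a TE change of 0.11 and 0.54. Input changes were 0.21 and 0.20 for Mgst3 and -0.36 and -0.08 for the lipoxygenase Alox15.

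Among 8 tested genes of breakdown and transport, Ggt5, which trims cysteinyl leukotrienes, had lower RNA in KO in both replicates. Its input was 2.44 and 1.34 RPKM and then 4.29 and 2.53 RPKM (-0.64 and -0.65, fit -0.67 ± 0.21, adjusted p = 1, limma). Dpep2, a dipeptidase that acts after it, had lower footprints (-1.27 and -0.37, fit -1.06 ± 0.62, adjusted p = 0.969, limma) and a TE change of -1.10 and -0.56. The reductases of prostaglandin and leukotriene breakdown differed, with a footprint change of 0.30 and 0.83 for Ptgr1 and, for Ptgr2, an input change of -0.32 and -0.19 and a TE change of 0.80 and 0.19.

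Among 5 tested receptors, Ltb4r1, the high-affinity receptor for leukotriene B, had a TE change of 0.64 and 1.22 (fit 0.71 ± 0.64). Cysltr1, a receptor for cysteinyl leukotrienes, had footprint changes of 1.70 and 0.63, from 0.662 and 2.25 RPKM in replicate 1 and 14.1 and 21.7 RPKM in replicate 2. Neither passed. The prostaglandin E receptors Ptger2 and Ptger4 had footprint changes of -1.69 and 0.82 and of -0.13 and 1.48, and the input of Ptger2 had -0.56 and -0.20. Ptgir, the prostacyclin receptor, was close to the median gene in input (-0.22 and -0.27) and RPF (0.29 and 0.25), with a TE change of 0.50 and 0.52.

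Several of these enzymes are also expressed by other myeloid cells, whose markers moved too. In input 4756 of all 10320 tested genes had the same sign in both replicates, in either direction, and 27% were lower and then higher. There, 9 of 10 tested neutrophil markers were lower in KO in both replicates, some only slightly in replicate 2 (Camp -0.08, Ngp -0.05, Ltf -0.06). Ptgs2, Alox5, Alox5ap and Lta4h were also lower in both, Alox5ap by only -0.03 in replicate 2. The medians of the neutrophil markers were -0.71 and -0.14. Their summed levels were 5400 and 3392 RPKM in replicate 1 and 5966 and 6374 RPKM in replicate 2. Of 7 tested mast cell and basophil markers 4 were lower in both, and the sum over all 9 found was 24.3 and 19.8 RPKM and then 70.4 and 42.4 RPKM. Of the macrophage markers 7 of 8 were lower in KO in replicate 1 and higher in replicate 2 (sums of 1268 and 951, then 1014 and 1408 RPKM), and of the dendritic cell markers 7 of 9 went the other way (4557 and 5322, then 5904 and 5526 RPKM). Their part in the RNA differences was not tested.

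In footprints the order of Alox5ap, Ptgs1 and Lta4h, lower and then higher, was shared by 25.6% of all tested genes at any size of change. Of the markers it was shared by 1 of 9 of dendritic cells, by 3 of 8 macrophage markers, by 0 of 10 neutrophil markers, by 1 of 7 mast cell and basophil markers, by 2 of 3 eosinophil markers and by 3 of 6 T and NK cell markers. The summed macrophage footprints were 3587 and 1529 RPKM in replicate 1 and 1486 and 1397 RPKM in replicate 2, with medians of -0.85 and 0.06. The eosinophil sum was 265 and 178 RPKM, then 286 and 564 RPKM, and that of T and NK cells 94.6 and 89.3 RPKM, then 20.3 and 63.7 RPKM. Of the 10 neutrophil markers 7 were higher in KO in both replicates and 1 was lower in both, with medians of 0.35 and 0.28. Of the 9 dendritic cell markers 1 was higher in both and 4 were lower in both. Over all 10320 tested genes 5042 had the same sign in both, in either direction. Neutrophil sums were 12689 and 11872 RPKM, then 26903 and 31513 RPKM, and dendritic cell sums 10001 and 13007 RPKM, then 18685 and 13822 RPKM. Mast cell and basophil sums were 339 and 356 RPKM, then 409 and 258 RPKM. Their part in the footprint differences was not tested.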

How the data were processed

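The authors deposited RPKM values of input and RPF libraries of Mettl3WT and Mettl3KO maDCs, each replicate in its own table. Of the software, bcl2fastq, TopHat2 2.0.14 and Cuffnorm, and of the build, mm10, are named in the submitters' processing notes. Annotation and read filters were not given in the sources used here. Log2 translation efficiencies, which the authors deposited in both tables, were not used. Columns of the second table carry group names only and were taken as that replicate's groups.

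Rows with a date in place of a symbol (27 and 19) were dropped and older symbols updated through RefSeq. Genes with a mean of at least 1 RPKM in input and in RPF were tested on log2(RPKM + 0.5), a scale that understates changes of low genes, with limma 3.58.1 in R 4.3.3 (eBayes with trend, replicate as block, two-sided, Benjamini-Hochberg over all tested genes, threshold 0.05). In RPF and TE the prior degrees of freedom were infinite, so each SE rests on the spread pooled over genes. The block was used because each table may carry its own normalization, and the lysates were prepared in littermate pairs. Deviations of same-numbered libraries correlated at 0.78 (input), 0.85 (RPF) and 0.83 (TE), although the number also marks the table.

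In replicate 2, RPKM were whole reads over an annotated length (tolerance 0.01) for 98.2% and 98.4% of genes in RPF and 79.1% and 79.2% in input, against 2.04% to 3.44% with another gene's length. Intervals are exact (95%) on these reads. Reads for Ptgs1 and Mettl3 input were not recovered. Fits were tested on simulated data.

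The 10 genes, the pathway and marker lists and the tests were chosen with earlier results of these data known. All 10 genes are named. Of each pathway list, up to 2 genes per measure were named, those with the same sign in both replicates and the largest smaller change. Pla2g4a, Tbxas1, Mgst2 and Ptger4, and footprints of Mgst3, Cotl1 and Ptger2, were added after their values were seen. Alternatives were other pseudocounts, filters and scalings, no block, and each library left out.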

Additional observations from a re-analysis of the deposited data

How the results depend on the processing

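No gene of the 10 passed the threshold under any alternative, and the smallest adjusted p among them was 0.478 (limma). Of 207 fits of these genes outside the leave-one-out fits, 198 kept their direction. With each library centred on its median, the log2 KO/WT in RPF of Ptges3, Lta4h and Hpgds turned to 0.19, 0.09 and 0.10. Quantile normalization turned Ptges3 (1.02), Alox5ap (-0.44) and Hpgds (0.10) in RPF and Ptges3 (0.80) and Alox5ap (-0.23) in TE, and a pseudocount of 1 turned Ptges3 in RPF to 0.03. The cause was not tested. Hpgds dropped out under a filter at 5 RPKM.

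Leave-one-out fits had no replicate block, so gaps between the tables entered them, and 43 of 120 turned direction. Their lowest and highest values in input were -1.07 and 0.5 for Ptgs1, -0.19 and 0.38 for Ptges, -0.11 and 0.25 for Ptges2, -0.55 and 0.9 for Ptges3, -1.51 and 0.16 for Alox5, -0.33 and 0.44 for Ltc4s and -0.64 and 0.32 for Hpgds. In RPF they were -0.82 and 1.12 for Ptgs1, -0.97 and 1.85 for Ptgs2, -2.26 and 0.83 for Ptges, -1.94 and 0.5 for Ptges2, -4.59 and 4.49 for Ptges3, -0.31 and 0.81 for Alox5, -0.59 and 1.33 for Alox5ap, -1.39 and 1.1 for Lta4h, -0.02 and 0.55 for Ltc4s and -0.57 and 0.29 for Hpgds. In TE they were -0.99 and 1.85 for Ptgs1, -0.44 and 2.66 for Ptgs2, -2.64 and 1.03 for Ptges, -2.05 and 0.47 for Ptges2, -4.15 and 3.71 for Ptges3, -0.23 and 2.09 for Alox5, -0.24 and 1.49 for Alox5ap, -1.31 and 1.85 for Lta4h, -0.03 and 0.45 for Ltc4s and -0.89 and 0.92 for Hpgds. Ptgs2 (-0.8 to -0.53), Alox5ap (-0.37 to -0.14) and Lta4h (-0.76 to -0.09) kept their direction in input in every leave-one-out fit. Lta4h moved from -0.42 to -0.76 without WT replicate 1, -0.09 without WT replicate 2, -0.15 without KO replicate 1 and -0.70 without KO replicate 2, and Alox5ap from -0.26 to -0.16 without WT replicate 1 and -0.14 without KO replicate 1.

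Over all genes limma called 9 higher and 16 lower in RPF, 7 and 10 in TE, and 0 in input (120 and 219 at an unadjusted p under 0.05). A pseudocount of 0.1 gave 14 higher in RPF and 15 in TE, and no filter gave 14 higher in RPF. Centring, quantile normalization and the fit without the replicate block (no pairing) each called 0 higher and 0 lower in RPF and TE. Leaving out 1 library gave 0 to 44 higher and 0 to 27 lower in input (44 and 6 without KO replicate 2, 6 and 27 without KO replicate 1), 0 to 1 and 0 to 2 in RPF, and 0 to 4 and 0 to 1 in TE.

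Alternatives chosen after seeing the data counted 6 of 10 genes opposite in RPF and 5 in TE with changes as deposited, and 5 and 4 with a pseudocount of 0.1 or 1. In replicate 2, 13 and 5 reads limit Ptges3, 29 and 42 Ltc4s, 47 and 47 Hpgds and 50 and 47 Ptges2.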
